A study of Mus musculus with 4 samples.

Results

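The cytosolic ribosomal protein genes encode the proteins that, together with ribosomal RNA, build the large and the small subunit of the ribosome of the cytoplasm. They were taken from the deposited table as the protein-coding rows whose symbol starts with Rpl or Rps, without the Rps6k kinases and without names that end in -ps and a number, which mark pseudogenes. The rule gave 86 of 29224 rows, 51 of the large subunit and 35 of the small subunit. Another 174 rows, whose symbols start in the same way and either end in -ps and a number or belong to rows annotated as pseudogenes or another non-coding class, served as a control for shared reads. Of the 86 genes, 46 large and 31 small subunit genes encode core proteins, and most of the others are related copies such as Rpl22l1, Rpl7l1, Rps27l and Rps27rt. Rps19bp1, which encodes a binding partner of RPS19, and Rps23rg1 match the rule by name but encode no ribosomal protein. Fau and Rack1 encode parts of the ribosome under other names and are outside the rule.

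RNA was sequenced from astrocytes of the cerebral cortex of mice at postnatal day 5, captured on magnetic beads with the antibody ACSA-1, which binds the glutamate transporter GLAST. One group was Ezh2 f/f, with both Ezh2 alleles flanked by loxP sites, and the other was Ezh2 cKO, bred from Ezh2 f/f and Aldh1l1-icre mice, so that all animals carried the floxed alleles and the cKO animals also carried a Cre driven by Aldh1l1, a gene of astrocytes. EZH2 is the catalytic subunit of Polycomb repressive complex 2, which methylates histone H3 at lysine 27. Each group had 2 libraries, and the sources used here do not say whether a library came from a single animal or a pool, so p-values measure the spread between these libraries only.

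The Ezh2 f/f libraries held 17522152 and 16273308 counts in total, the Ezh2 cKO libraries 17330230 and 16678309. Ezh2 had 434 and 327 reads in Ezh2 f/f against 211 and 164 in Ezh2 cKO. Of 12 astrocyte markers 10 were higher and 0 lower in Ezh2 cKO. CPM are counts scaled to the library size, which was first multiplied by its TMM factor. The summed level of these markers was 648 and 705 CPM in Ezh2 f/f against 3345 and 3049 in Ezh2 cKO. No marker of any list was at 0 in every library. Transcripts of other cells were present in all libraries: the 12 pan-neuron markers summed to 7492 and 8318 CPM in Ezh2 f/f against 10324 and 10212 in Ezh2 cKO, with 11 higher and 1 lower. The libraries numbered 1 had 171 counts of the Y-linked gene Ddx3y in each group, whereas those numbered 2 had 0 and had 3632 and 3834 counts of Xist, the RNA of the inactive X chromosome. All fold changes below are Ezh2 cKO over Ezh2 f/f on the log2 scale, fitted with the quasi-likelihood test of edgeR to all 16793 genes with enough counts, and a gene is called at a Benjamini-Hochberg adjusted p under 0.05 over all of them. Of all genes tested, 33.6% were called lower and 34.7% higher, and the marker counts above and below stand beside these shares.

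Ribosomal protein mRNAs are among the most abundant of a mammalian cell, and their proteins are made in equal numbers, since each ribosome holds 1 copy of nearly every protein. Most of these mRNAs start with a run of pyrimidines, the 5′ terminal oligopyrimidine or TOP motif, through which the kinase mTOR and the RNA-binding protein LARP1 set their translation and stability. Transcription of ribosome components is raised by MYC proteins, and growing and dividing cells, neural progenitors included, make more ribosomes than resting cells. Mammalian genomes also hold many processed pseudogenes of these genes, copies of spliced mRNA inserted elsewhere, which can be nearly identical to the gene.

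The length of the pyrimidine run varied among abundant members. The 30-base windows below come from RefSeq promoters on GRCm38.p6, are written on the strand of the gene and have the longest run of C and T between 20 bases before and 40 bases after the annotated start in capitals. They are shown because the run is long in the upper 4 and short in the lower 2, although all of these genes are abundant. Counted from the annotated start, the runs begin at -18 in Rpl4, -14 in Rpl7a, 25 in Rps15 and 24 in Rps23. Those of Rps4x and Rpl41 begin at 27 and -3. None of these runs thus begins at the annotated start. Whether a run is a TOP motif, and whether the annotated start is the one used in these cells, was not tested. Of the 10 abundant members examined, 5 had a run of at least 8 bases; of those not shown, Rpl26 had 14, Rplp0 and Rpsa 7 and Rps3a1 6. The windows lie at chr9:64173361-64173390 on the plus strand for Rpl4, chr2:26910788-26910817 on the plus strand for Rpl7a, chr10:80292446-80292475 on the plus strand for Rps15, chr13:90923135-90923164 on the plus strand for Rps23, chrX:102189348-102189377 on the minus strand for Rps4x and chr10:128549156-128549185 on the minus strand for Rpl41.
Rpl4: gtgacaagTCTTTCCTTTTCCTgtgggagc
Rpl7a: cacaaTTCCCTCTTCTTTCTTTCTCCagca
Rps15: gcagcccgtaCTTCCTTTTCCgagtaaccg
Rps23: tgccttgtgggTCCTTCCTgcacctcctct
Rps4x: agcgcgcgcgcagCCTCCgaccctaatttc
Rpl41: gacacacgggccggCTCggaagtgacgaca
Of the 86 genes, 66 had an entry in the promoter table. A run of at least 8 pyrimidines in that stretch was present in 65.2% of them (27 of 39 large and 16 of 27 small subunit genes) and in 21.8% of all 27025 promoters. Searched on both strands in the 300 bases from 250 before to 50 after the start, CCGGAAG, the core of the binding motif of ETS factors, was found in 37.9% of the members and 9.12% of all promoters, AAGATGGCG, part of the YY1 motif, in 6.06% and 1.49%, and TATAAA in 9.09% and 14.2%. These are matches of letters in a window, and none of them was tested for a role.

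The ribosomal protein genes took a smaller share of the reads in the Ezh2 cKO libraries. Summed over the 86 genes, 4.26% (95% Wilson interval 4.25% to 4.26%) and 4.12% (4.11% to 4.13%) of all counts fell on them in the Ezh2 f/f libraries. In the Ezh2 cKO libraries the shares were 2.72% (2.71% to 2.73%) and 2.40% (2.39% to 2.40%). Both Ezh2 cKO libraries thus lay below both Ezh2 f/f libraries, and the gap was wider than the difference between libraries of a group; intervals cover counting error only. Large subunit genes held 2.36% ± 0.000466 (SD, n = 2) of the counts in Ezh2 f/f and 1.45% ± 0.0904 (SD, n = 2) in Ezh2 cKO. Small subunit genes held 1.83% ± 0.0943 and 1.10% ± 0.139 (SD, n = 2 each). An exact permutation test of these 4 values cannot pass a threshold of 0.05 with 2 libraries per group, and no test of the shares was run. In a bulk sample, fewer cells of a type that is rich in these mRNAs and less of them per cell cannot be told apart.

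By gene, 43 of 47 tested large subunit genes fell in Ezh2 cKO and 0 rose, against 33.6% of all tested genes lower and 34.7% higher. Of 34 tested small subunit genes, 31 fell and 0 rose. Without adjustment, at a p under 0.05, 43 and 31 were lower and 0 higher, and DESeq2's Wald test called 0 of either subunit higher. The median log2 fold change was -0.83 in the large subunit, or 56.3% of the Ezh2 f/f level, and -0.85 in the small subunit, or 55.6%, beside 0.02 over all genes tested. In 45 of 47 large and 32 of 34 small subunit genes both Ezh2 cKO libraries had fewer CPM than both Ezh2 f/f libraries, as had 41.5% of all genes tested. A difference of at least 2-fold was found for 7 large and 6 small subunit genes, a share near the 14.3% of all genes. The fall was thus common to nearly all members and moderate in size, with quartiles of -0.95 and -0.59 in the large and -0.94 and -0.68 in the small subunit. Of the 74 members that fell, 72 were called lower under each of the 15 settings run, and the exceptions were Rpl41 and Rps29.

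**Figure D1:**
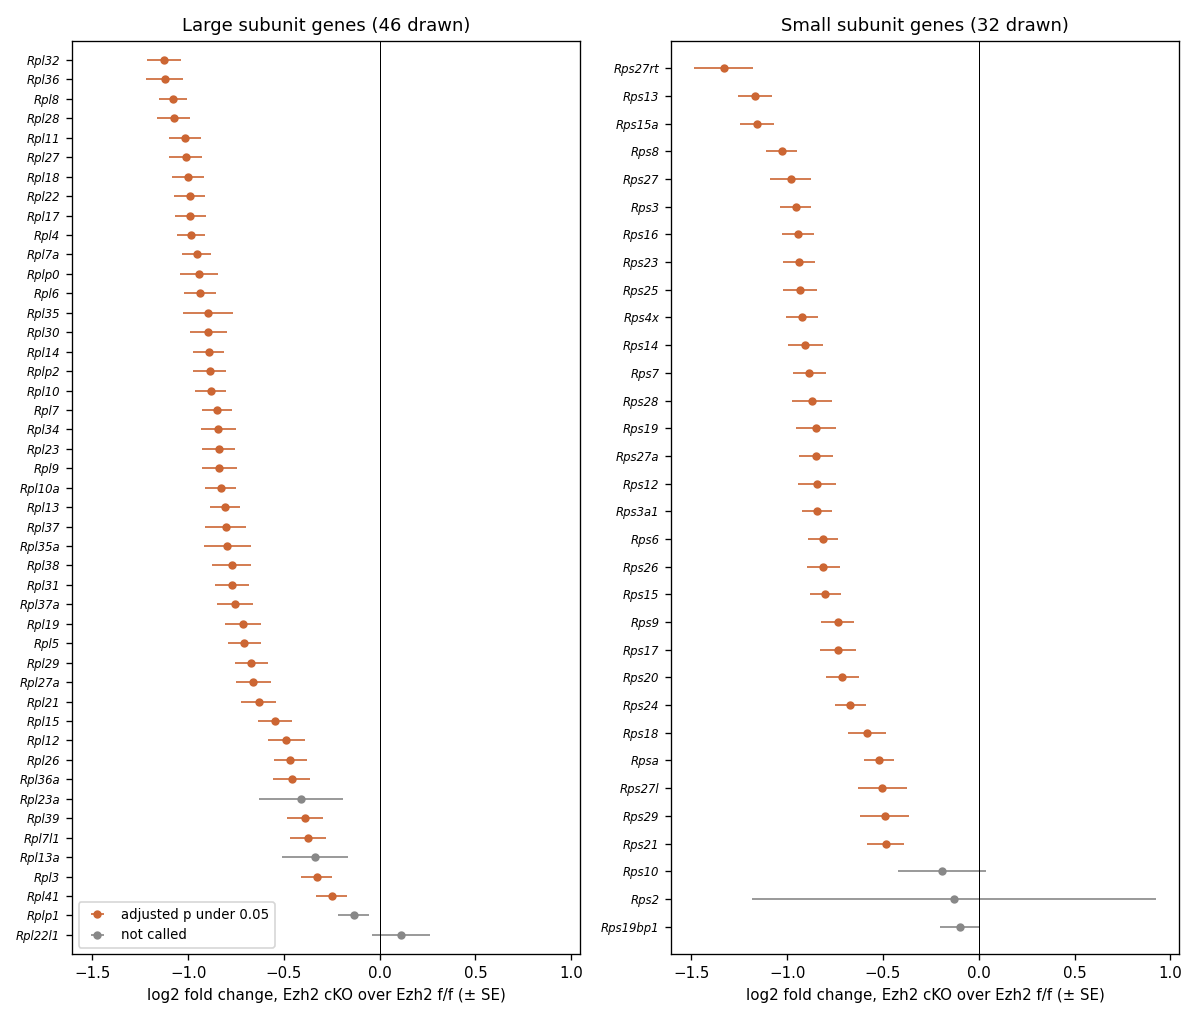
Log2 fold change of tested large subunit genes (left, 46 drawn) and small subunit genes (right, 32 drawn), Ezh2 cKO over Ezh2 f/f, with bars for ± 1 standard error from edgeR and n = 2 libraries per group. Orange points have an adjusted p under 0.05 and all lie below 0, grey points were not called, and the bar of Rps2 is the widest, with a standard error of 1.05.

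The large subunit carries the peptidyl transferase centre and the stalk that recruits elongation factors. Its member with the highest mean level per length was Rplp1, a protein of the stalk, at 1663 FPKM (fragments per kilobase of gene, scaled to library size, as deposited), number 8 of all genes. Rplp1 was at 885 and 858 CPM in Ezh2 f/f and at 847 and 738 CPM in Ezh2 cKO. The groups did not overlap, but the log2 fold change was -0.14 (SE 0.08, edgeR adjusted p = 0.155), and the gene was not called. Rplp0, the base of the same stalk, was at 1680.1 and 2121 CPM in Ezh2 f/f and at 1053 and 925 CPM in Ezh2 cKO, with a log2 fold change of -0.94. The third stalk gene, Rplp2, fell by 0.89 on the log2 scale.

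Rpl8, whose protein lies next to the peptidyl transferase centre, was at 1042 and 1026 CPM in Ezh2 f/f and at 498 and 480.3 CPM in Ezh2 cKO. Its log2 fold change of -1.08 (SE 0.07, edgeR adjusted p = 2.21e-08) was among the lowest of the large subunit, as were those of Rpl32 (-1.12), Rpl36 (-1.12) and Rpl28 (-1.08). In each of these 4 genes both Ezh2 cKO libraries lay below both Ezh2 f/f libraries. Rpl36 had 331 and 304 CPM in Ezh2 f/f and 155 and 136 CPM in Ezh2 cKO.

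At the other end, Rpl41, which encodes one of the shortest proteins of the cell, was at 926 and 919.6 CPM in Ezh2 f/f and at 826 and 725 CPM in Ezh2 cKO. It fell by 0.25 on the log2 scale (SE 0.08, edgeR adjusted p = 0.0130), but was not called by limma on FPKM (adjusted p = 0.129 and 0.120 with a pseudocount of 1 and 0.1) or without Ezh2 cKO replicate 2 (adjusted p = 0.157). Rpl3, a large protein that reaches towards the catalytic centre, fell by 0.33, from 707 and 732 CPM to 602 and 544 CPM. Rpl13a and Rpl23a, at -0.34 and -0.41, were not called and had few counts of their own.

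Chosen for their roles rather than by the rule for named genes, Rpl5 and Rpl11, whose proteins carry the 5S ribosomal RNA and bind MDM2 when free, fell by 0.71 and 1.02 on the log2 scale. Rpl5 was at 543 and 506 CPM in Ezh2 f/f and at 339 and 304 CPM in Ezh2 cKO. Rpl11 was at 641 and 665 CPM in Ezh2 f/f and at 340.2 and 305 CPM in Ezh2 cKO.

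The small subunit decodes the mRNA. Its most abundant member per length was Rps15, at 1132 FPKM, which sits near the decoding centre. Rps15 was at 914 CPM in both Ezh2 f/f libraries and at 560.5 and 489 CPM in Ezh2 cKO, with a log2 fold change of -0.80 (SE 0.08, edgeR adjusted p = 1.15e-06). Rps3a1 followed with 947 and 920.1 CPM in Ezh2 f/f and 543 and 498 CPM in Ezh2 cKO (-0.84). Rpsa, whose protein is also known as a laminin receptor, was at 2099 and 2042 CPM in Ezh2 f/f and at 1548 and 1336 CPM in Ezh2 cKO, the smaller log2 fold change of -0.52. The X-linked Rps4x fell by 0.92.

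Rps13 (-1.17) and Rps15a (-1.16) were among the small subunit genes with the lowest values, and the lowest, Rps27rt, is a related copy described with its core gene below. Rps13 was at 363 and 385 CPM in Ezh2 f/f and at 173 and 159.6 CPM in Ezh2 cKO. Rps6, whose protein is the best known substrate of the S6 kinases, was at 567 and 584 CPM in Ezh2 f/f and at 332 and 323 CPM in Ezh2 cKO (-0.81).

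Rps21 and Rps29 fell least among the small subunit genes called, both by 0.49 on the log2 scale. Rps21 was at 194 and 187 CPM in Ezh2 f/f and at 147 and 126 CPM in Ezh2 cKO. Rps29, a zinc-binding protein, was at 253 and 194 CPM in Ezh2 f/f and at 177 and 141 CPM in Ezh2 cKO, and its libraries differed within each group. Its adjusted p was 0.00363 in edgeR, but 0.0696 with DESeq2, 0.0536 and 0.0600 with limma on FPKM and 0.102 without Ezh2 cKO replicate 2. Rps2, Rps10 and Rps19bp1 were not called, with log2 fold changes of -0.13, -0.19 and -0.10. Rps19bp1 was at 40.9 and 41.8 CPM in Ezh2 f/f and at 40.4 and 36.8 CPM in Ezh2 cKO (edgeR adjusted p = 0.399).

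Across the members, the 2 Ezh2 cKO libraries were not at the same level. Relative to each gene's Ezh2 f/f mean, the median over 81 tested members was 0.0078 and -0.0078 log2 units in the Ezh2 f/f libraries, -0.75 in Ezh2 cKO replicate 1 and -0.93 in Ezh2 cKO replicate 2. Ezh2 cKO replicate 2 was below replicate 1 in 45 of 47 large and 31 of 34 small subunit genes, against 53.1% of all genes tested. In Ezh2 f/f, replicate 2 was below replicate 1 in 29 of 47 and 18 of 34, against 49.7% of all genes. Leaving out Ezh2 cKO replicate 2 left a median of -0.74 in the large and -0.75 in the small subunit, with 42 and 30 genes called lower.

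**Figure D2:**
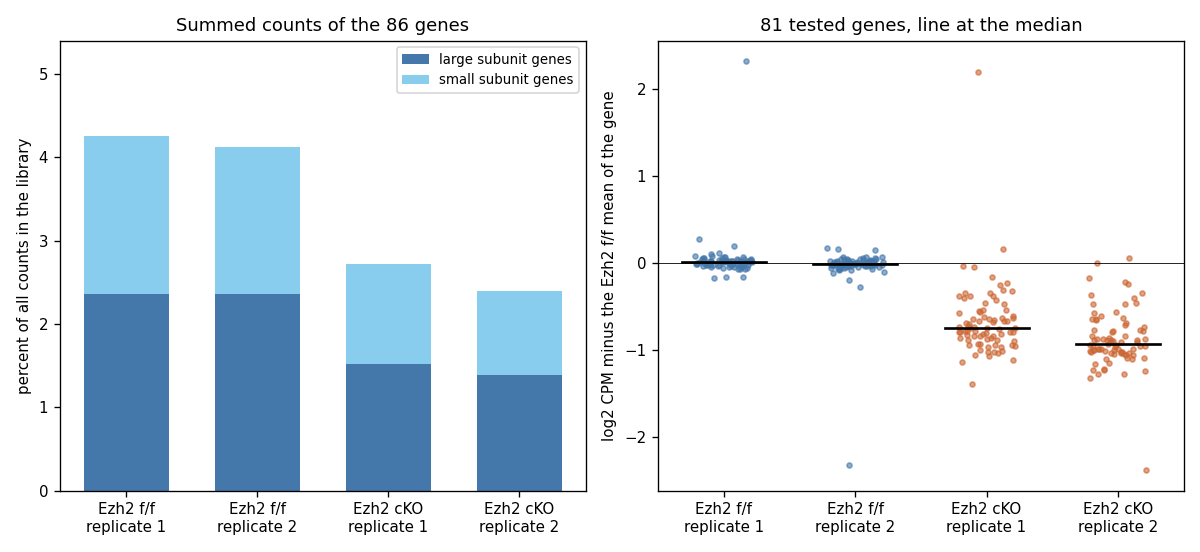
Left, counts of large (dark) and small (light) subunit genes as a percent of all counts in each library, stacked. Right, log2 CPM (+ 0.01) of 81 tested members minus the gene's Ezh2 f/f mean, a point per gene and a line at the median, which is at -0.75 and -0.93 in the Ezh2 cKO libraries; the points beyond 2 on either side are Rps2.

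Markers of immature and dividing cells moved in the same direction as the ribosomal protein genes. Of 12 markers in a mixed list of neural progenitors and young neurons, 10 were lower and 1 higher in Ezh2 cKO. Their summed level was 1806 and 1712 CPM in Ezh2 f/f and 494 and 548 CPM in Ezh2 cKO. Progenitor and young neuron markers were not counted apart. Of 12 cycling markers 8 were lower and 0 higher, with 233 and 219 CPM against 143 and 135 CPM. Markers of oligodendrocytes (7 of 7 tested), oligodendrocyte precursors (8 of 8) and microglia (10 of 10) were higher. Of all tested genes 33.6% were lower and 34.7% higher. Of 5 tested ependymal and choroid plexus markers 4 were lower and 1 higher, with a summed level of 399 and 785 CPM in Ezh2 f/f and 14.7 and 12.6 CPM in Ezh2 cKO. The part of cell composition in the fall of the ribosomal protein genes was not tested.

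The pseudogene rows fell as well. Of the 174 rows, 87 passed the filter, of which 62 were lower, 0 higher, also without adjustment and with DESeq2, and 25 not called, with a median log2 fold change of -0.97. The share lower was 71.3%, beside 33.6% of all tested genes. Those with the most counts were Rps2-ps13 (-0.16, not called), Rpl3-ps1 (-0.40) and Rps7-ps3 (-0.99), the last pair called lower in edgeR. Rpl3-ps1 had 3789 and 3515 reads in Ezh2 f/f against 3172 and 2726 in Ezh2 cKO, and its parent Rpl3 was likewise among the members with the smallest fall. Rps7-ps3 had 4015 and 3877 reads in Ezh2 f/f against 2294 and 1962 in Ezh2 cKO, beside -0.88 for Rps7. Other rows lay further from their parents. Rps19-ps6 had 2453 and 2548 reads in Ezh2 f/f against 648 and 544 in Ezh2 cKO (-2.17), beside -0.85 for Rps19, and Rps4l was at -1.56 beside -0.92 for Rps4x. Whether these counts are transcripts of the pseudogenes or reads of the parent mRNA placed there cannot be told apart from the deposited tables. Windows of 50 bases were compared with pseudogene transcripts of GENCODE M21 on GRCm38, using the longest protein-coding transcript of each member. A median of 35.8% of a member's windows was also present in a pseudogene transcript, from 0% in 4 members to 85.6% in Rpl3. The longest transcript need not be the one expressed, and a long one can lower the share. That of Rps15a has 5179 bases, with 5.65% of its windows shared, and that of Rps20 has 3706, with 7.22%.

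For a few members the split between gene and pseudogene decided the value of the gene itself. Rps2, a protein of the mRNA entry channel, had 15640 and 577 reads in Ezh2 f/f against 14751 and 611 in Ezh2 cKO. Rps2-ps13 on the X chromosome, where 875 of 882 aligned bases are identical to the Rps2 transcript, had 9293 and 16881 reads in Ezh2 f/f against 9597 and 15683 in Ezh2 cKO. In both groups Rps2 was thus high in the library numbered 1, which also had Ddx3y counts, and low in the library numbered 2, which had Xist counts, and Rps2-ps13 was the other way round; the cause was not tested. The 60 bases of the Rps2 coding sequence, within an exon, with the most differences from Rps2-ps13 show how alike they are; the differing bases are in capitals. It lies at chr17:24720300-24720359 for Rps2 and chrX:52898612-52898671 for Rps2-ps13, both on the plus strand of GRCm38.
Rps2: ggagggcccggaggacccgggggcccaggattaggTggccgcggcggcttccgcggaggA
Rps2-ps13: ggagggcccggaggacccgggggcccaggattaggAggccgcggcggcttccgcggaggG
The groups overlapped, and the log2 fold change of Rps2 was -0.13 with a standard error of 1.05. Leaving out Ezh2 f/f replicate 1 gave 3.56 and leaving out replicate 2 of that group -1.09, and leaving out Ezh2 cKO replicate 1 gave -3.75 and replicate 2 of that group 0.81, so that the value of this gene rests on which libraries are compared. In each of these fits the libraries numbered 1 and 2 are not balanced between the groups. With the replicate number as a block, which keeps the balance, the log2 fold change of Rps2 was -0.10 (edgeR adjusted p = 0.404). Summed over Rps2 and 39 pseudogene rows the log2 fold change was -0.16 (SE 0.14, edgeR adjusted p = 0.323).

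Rplp0 differed from Rps2 in that a single library stood apart. Gm8730, a processed pseudogene of Rplp0 with 942 of 954 aligned bases identical, had 6979 counts in Ezh2 f/f replicate 1 and 244 in Ezh2 f/f replicate 2, and 115 and 110 in Ezh2 cKO. Gm9625, another copy, had 993, 10, 4 and 3 counts in the same order. Both were named after their values were seen. The stretches below, chosen in the same way, at chr5:115561168-115561227 on the plus strand for Rplp0 and chr8:102865352-102865411 on the minus strand for Gm8730 (GRCm38), hold 3 differing bases, in capitals.
Rplp0: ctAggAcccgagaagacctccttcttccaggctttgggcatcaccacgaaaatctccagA
Gm8730: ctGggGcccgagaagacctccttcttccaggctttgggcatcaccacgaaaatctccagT
With the counts of the gene and 5 pseudogenes added, Rplp0 was at 2160.0 and 2138 CPM in Ezh2 f/f and at 1059 and 932 CPM in Ezh2 cKO, so that the difference between the Ezh2 f/f libraries shrank and the log2 fold change went from -0.94 to -1.12. These rows were matched by name or UniProt accession, and with rows matched by name alone it was -0.95.

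**Figure D3:**
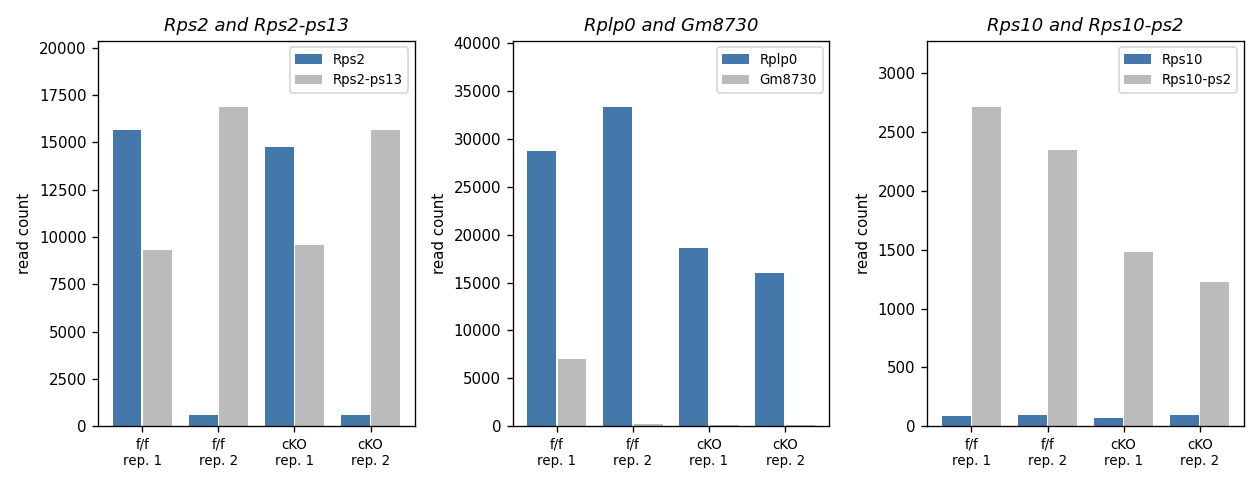
Read counts in each library (rep., replicate) of 3 ribosomal protein genes, in blue, and of a processed pseudogene of each, in grey. Rps2 and Rps2-ps13 trade places between the libraries numbered 1 and 2 of both groups, Gm8730 is high in Ezh2 f/f replicate 1 only, and Rps10-ps2 has between 1222 and 2713 counts where Rps10 has between 74 and 97.

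Rps10 and Rpl23a had most of their summed reads on pseudogene rows in every library, whereas Rps2 did so only in the libraries numbered 2. Both Rps10 and Rpl23a were not called by themselves and were called lower once the rows were added. Rps10, at the mRNA entry site, had 85 and 97 reads in Ezh2 f/f against 74 and 96 in Ezh2 cKO, with a log2 fold change of -0.19. Rps10-ps2 had 2713 and 2350 reads in Ezh2 f/f against 1483 and 1222 in Ezh2 cKO. The sum of Rps10 and 4 pseudogene rows fell by 0.99 on the log2 scale (edgeR adjusted p = 4.12e-07), from 174 and 169.9 CPM to 93.9 and 81.1 CPM. Rpl23a, which lies at the exit of the nascent chain, had 179 and 112 reads in Ezh2 f/f against 103 and 129 in Ezh2 cKO, and the groups overlapped. With 15 pseudogene rows it fell by 0.87 (edgeR adjusted p = 1.02e-06), and with rows matched by name alone by 0.73. Rpl13a, with 172 and 168 reads in Ezh2 f/f against 156 and 131 in Ezh2 cKO, went from -0.34 to -0.47 with rows matched by name or UniProt accession, which passed the threshold (edgeR adjusted p = 0.0238), and to -0.35 with rows matched by name alone, which did not (adjusted p = 0.0897).

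Among the 86 members, 73 had at least 1 pseudogene row. Over the 4 libraries together, 6 had over 50% of the summed counts on such rows and 58 had at least 90% on their own row. After adding the rows matched by name, 44 of 47 large and 32 of 34 small subunit genes were called lower, and 0 higher. With rows also matched by UniProt accession, which was chosen after seeing the data, 46 large subunit genes were called lower out of 48 tested, since Rpl24 then passed the filter, and 32 small subunit genes. The medians were -0.86 and -0.88. Across 81 tested members, the log2 fold change had a Spearman correlation of 0.05 with the share of shared windows and -0.16 with transcript length. Both measures come from the longest protein-coding transcript, which need not be the one expressed. With mean FPKM the correlation was -0.23. These values are a description over genes of the same 4 libraries.

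A total of 5 members had too few counts to be tested. Rpl24 had 9 and 11 reads in Ezh2 f/f against 7 and 4 in Ezh2 cKO, although it encodes a core protein; 2 pseudogene rows of it brought the sum to 62 and 47 against 24 and 30. Rpl36al had 13 and 6 reads in Ezh2 f/f against 6 and 7 in Ezh2 cKO. Rpl3l, the copy of Rpl3 known from striated muscle, had 8 and 0 against 9 and 7, Rpl39l, known from the testis, had 0 and 1 against 9 and 1, and Rps23rg1 had 7 and 4 against 1 and 1. A change on the own rows of these genes was not detectable at these counts. The sum for Rpl24 fell by 1.11 on the log2 scale (edgeR adjusted p = 0.00456). Its rows were matched by name or UniProt accession, which was chosen after seeing the data.

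The related copies that could be tested did not move like their core genes in every case. Rpl22l1, the close relative of Rpl22, was at 13.5 and 12.3 CPM in Ezh2 f/f and at 14.4 and 13.4 CPM in Ezh2 cKO. The groups overlapped and the log2 fold change was 0.11 (SE 0.15, edgeR adjusted p = 0.533), the highest of all members, whereas Rpl22 fell by 0.99, from 472 and 463 CPM to 240.2 and 229.5 CPM. Per length, Rpl22l1 was at 4.18% and 3.88% of the FPKM of Rpl22 in Ezh2 f/f and at 8.78% and 8.54% in Ezh2 cKO. Rpl7l1, the relative of Rpl7, fell by 0.37 and Rpl7 by 0.85, so that its share of the FPKM of Rpl7 was 8.11% and 8.34% in Ezh2 f/f against 11.2% and 11.7% in Ezh2 cKO.

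Rps27 has 2 such relatives. Rps27l, known as a target of p53, fell by 0.50 on the log2 scale and was at 15.8% and 15.6% of the FPKM of Rps27 in Ezh2 f/f and at 19.3% and 25.2% in Ezh2 cKO. Rps27rt, a retrogene, had 320 and 324 reads in Ezh2 f/f against 132 and 141 in Ezh2 cKO, and the value of -1.33 (SE 0.15, edgeR adjusted p = 3.51e-06) was the lowest of all members. It was at 27.3% and 29.3% of the FPKM of Rps27 in Ezh2 f/f and at 19.2% and 25.9% in Ezh2 cKO, with the Ezh2 cKO libraries below those of Ezh2 f/f but apart from each other. Rps27 itself fell by 0.98. These ratios are a description with 2 libraries per group, and were not tested. Of the 50-base windows of Rps27rt, 54.2% were also present in a pseudogene transcript, and windows shared with Rps27 were not measured. How reads were divided between Rps27rt, Rps27 and their copies cannot be told from the deposited tables.

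**Figure D4:**
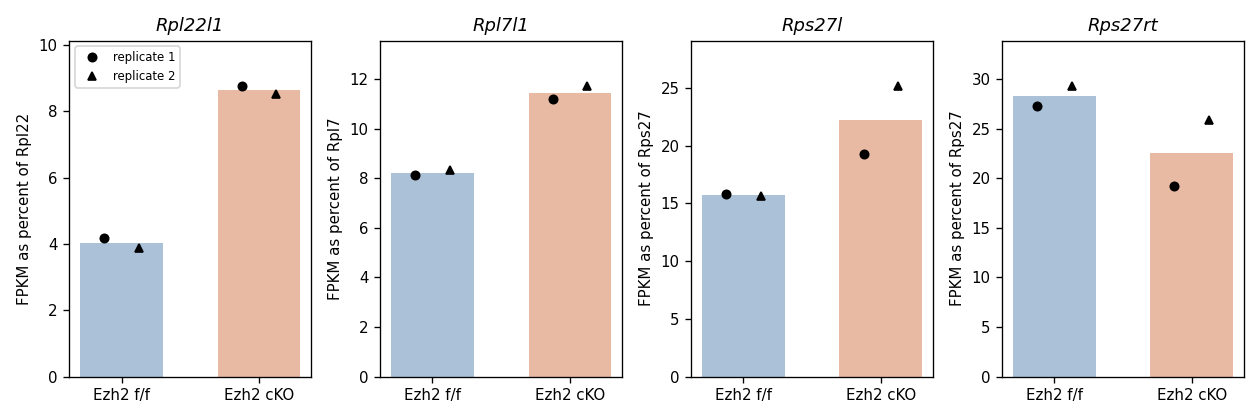
FPKM of 4 related copies as a percent of the FPKM of the core gene, with a bar at the mean of 2 libraries and a symbol per library. Rpl22l1 is at 4.18% and 3.88% of Rpl22 in Ezh2 f/f and at 8.78% and 8.54% in Ezh2 cKO, while the Ezh2 cKO libraries of Rps27l and Rps27rt lie apart from each other.

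Fau and Rack1, which encode parts of the ribosome under other names, were also lower in Ezh2 cKO. Fau, whose product is cut into a ubiquitin-like protein and RPS30, was at 464 and 472 CPM in Ezh2 f/f and at 266 and 238 CPM in Ezh2 cKO, with a log2 fold change of -0.89 (edgeR adjusted p = 6.21e-07). Rack1, a signalling scaffold on the small subunit, fell by 0.98, from 1041 and 953 CPM to 524 and 487 CPM. Rps27a, a member whose product is fused to ubiquitin, fell by 0.85.

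Genes that work with the ribosome were compared from lists of translation factors and of ribosome assembly factors. Of 43 translation factor genes 30 fell (69.8%) and 7 rose, with a median of -0.46, beside 33.6% of all tested genes lower and 34.7% higher. Eef2, the translocation factor, went from 4848 and 4583 CPM to 2485 and 2324 CPM, a log2 fold change of -0.97. Eef1a1, the carrier of aminoacyl-tRNA and the most abundant gene of the list, fell by 0.77, whereas Eef1a2, the form of mature neurons and muscle, rose by 1.93, from 234 and 268 CPM to 962 and 955 CPM. The lowest were Eif4b (-1.17), Eif3f (-1.09) and Btf3 (-1.04), and Eif2s1 rose by 1.51. Eif4a1 and its relative Eif4a2 also went in opposite directions, at -0.42 and 0.61, and Tpt1, which like the ribosomal protein genes carries a TOP motif, fell by 0.75.

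Of 80 ribosome assembly genes 55 fell (68.8%) and 12 rose, with a median of -0.67, beside 33.6% of all tested genes lower and 34.7% higher. Ubtf, which activates transcription of ribosomal RNA, went from 491 and 461 CPM to 173 and 164 CPM (-1.50, SE 0.09, edgeR adjusted p = 3.76e-09). Rrn3 (-1.18) and the RNA polymerase I subunits Polr1b (-1.22) and Polr1a (-0.50) also fell, as did the nucleolar proteins Fbl (-1.07), Ncl (-0.67) and Npm1 (-0.51). The lowest were Rrp1b (-1.53), Ubtf and Gnl3 (-1.47), the gene of nucleostemin, which is known from stem and progenitor cells. Nop10 (1.24), of the pseudouridylation complex, and Ltv1 (1.10), of small subunit export, were the highest. Of the factors that act late in subunit assembly, Eif6 fell by 0.64 and Sbds rose by 0.56.

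Of 16 regulators of ribosome production 11 were lower, 2 higher and 3 not called, beside 33.6% of all tested genes lower and 34.7% higher. The MYC family fell: Myc by 1.12, Mycn by 1.01 and Mycl by 1.63 on the log2 scale. Mycl was at 214 and 202 CPM in Ezh2 f/f and at 64.1 and 70.2 CPM in Ezh2 cKO. In the mTOR pathway Mtor fell by 0.31, its inhibitors Tsc1 and Tsc2 by 0.68 and 0.60, Akt1s1 by 0.49 and Rps6kb1 by 0.42, while its activator Rheb rose by 0.50, and Rptor (0.18) and Rps6kb2 (0.06) were not called. Without Ezh2 cKO replicate 2 Mtor was no longer called (edgeR adjusted p = 0.0516), and with limma on log2(FPKM + 1) and log2(FPKM + 0.1) Rps6kb1 was not (adjusted p = 0.0537 and 0.0513). Eif4ebp2, a repressor of cap-dependent translation that mTOR inactivates, fell by 1.51, whereas Eif4ebp1 was not called (0.10). Larp1 fell by 0.39 and Larp1b rose by 0.63, although without Ezh2 cKO replicate 1 the latter was not called (0.51, edgeR adjusted p = 0.0613), and Maf1, a repressor of RNA polymerase III, fell by 1.67.

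The ribosomal proteins of mitochondria are encoded by a separate set of nuclear genes. Of 77 such genes 26 fell and 29 rose, with a median of -0.04, and they took 0.265% and 0.270% of all counts in Ezh2 f/f against 0.286% and 0.280% in Ezh2 cKO. Their lowest values were those of Mrpl2, at 49.9% of its Ezh2 f/f level, and Mrps30 (-0.82), and their highest those of Mrps25 (2.60) and Mrpl14 (2.17). The shares of genes called, 26 lower and 29 higher, were near the background of 33.6% and 34.7% of all genes, whereas those of the cytosolic genes were 91.5% lower in the large and 91.2% lower in the small subunit.

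**Figure D5:**
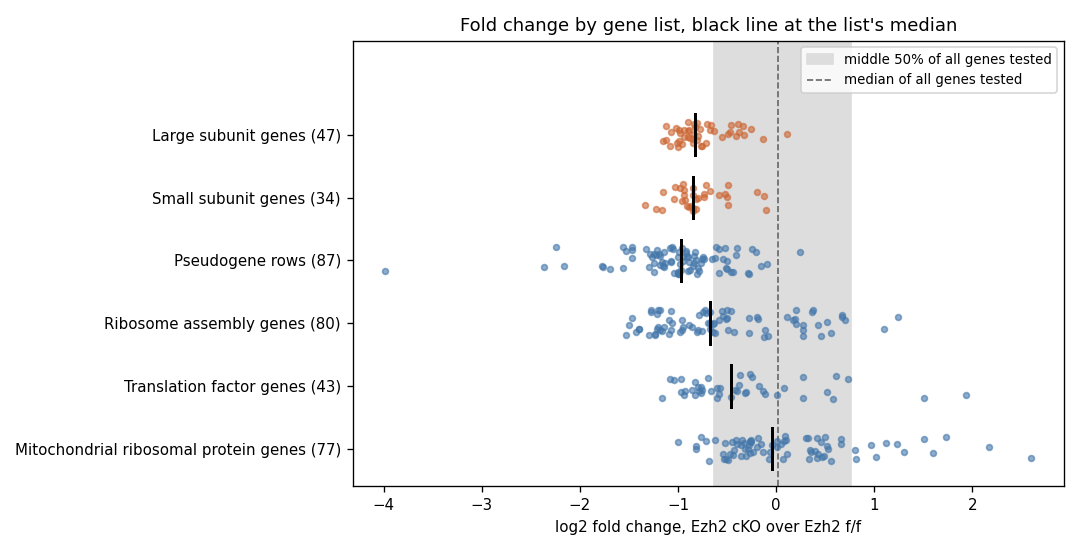
Log2 fold change, Ezh2 cKO over Ezh2 f/f, of the tested genes of each list, a point per gene, with a black line at the median of the list, a dashed line at the median of all 16793 genes tested and a grey band over their middle 50%. Medians are at -0.83 and -0.85 for the large and small subunit genes, -0.97 for the pseudogene rows, -0.67 for assembly genes, -0.46 for translation factors and -0.04 for mitochondrial ribosomal proteins.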

How the data were processed

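RNA-seq was compared between 2 Ezh2 f/f and 2 Ezh2 cKO libraries of bead-sorted cortical astrocytes at postnatal day 5. The authors deposited raw read counts and FPKM values, scaled to gene length and library size, for 29224 genes. The submitters' processing notes name Bowtie2 2.2.3, TopHat2 2.0.12, HTSeq 0.6.0 and mm9; the annotation and the use of strand and of multiply mapped reads are not given in the sources used here. The deposited gene coordinates matched GRCm38 for 581 of 28799 identifiers and were not used. The deposited mean signal, ratio, log2 fold change and p-value columns hold the authors' own comparison and were left out.

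Counts were filtered with filterByExpr, TMM-normalized (factors 0.976, 0.967, 1.02 and 1.04) and fitted with edgeR 4.0.16 (quasi-likelihood test, group as the only term, biological coefficient of variation 0.0953) in R 4.3.3, with Benjamini-Hochberg adjustment over 16793 genes. Alternatives were TMM factors without ribosomal protein rows, DESeq2 1.42.0, its size factors in edgeR, other filters, limma 3.58.1 on log2(FPKM + 1) and log2(FPKM + 0.1), where fold changes of low genes are understated, a block for the replicate number, leaving out each library, and counts summed with pseudogene rows. The edgeR, DESeq2 and limma fits of all 4 libraries by group were tried on simulated counts, with 200 genes changed by 2 on the log2 scale. Recovered were 189, 170 and 184 of them, with 11, 4 and 14 false calls. Fewer genes changed there than were called here, and the other alternatives were not simulated. Levels between genes are compared in FPKM only. Replicates were not duplicates of each other (the chi-square per degree of freedom was 8.92 for the Ezh2 f/f pair and 5.68 for the Ezh2 cKO pair). Python 3.11.15 was used with numpy 2.4.6 and pandas 2.3.3.

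The members and lists were chosen with earlier results of these data known. Genes named are, per subunit, the 5 most abundant by FPKM, the 5 lowest and 5 highest by fold change, those not called and those not tested, and list members; others are named as core partners, for their roles or after their values were seen. A few genes that this rule names are not reported here by name, although the counts and medians include them.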

Additional observations from a re-analysis of the deposited data

How the results depend on the processing

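The count of large subunit genes called lower ranged from 42 to 46 over the settings run and that of small subunit genes from 30 to 32, and 0 large subunit genes were higher in any of them. Without Ezh2 f/f replicate 1, 1 small subunit gene, Rps2, was higher; over the fits that left out a library this count ranged from 0 to 1, and that of pseudogene rows higher from 0 to 2. Without the filter on low counts 1 pseudogene row was higher. With limma on log2(FPKM + 1) and log2(FPKM + 0.1) the median of the large subunit was -0.74 and -0.75 and that of the pseudogene rows -0.74 and -0.90. Leaving out a library in turn, the median ranged from -0.88 to -0.74 in the large subunit, from -0.98 to -0.75 in the small subunit and from -0.96 to -0.93 over the pseudogene rows, and from 14 (without Ezh2 cKO replicate 2) to 25 mitochondrial ribosomal protein genes were lower. A left-out library leaves its group with 1 library, which is assumed to vary like the others. The libraries numbered 1 and 2 are then not balanced between the groups. Over the same fits, in which some signs reversed, the value of Rps2 ranged from -3.75 to 3.56 (0.81 for the set lacking Ezh2 cKO replicate 2), that of Rps2-ps13 from -0.57 to 0.40 (0.16 for the set lacking Ezh2 cKO replicate 1) and that of Rps6kb2 from -0.0086 to 0.13. The cause was not tested.

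The labels share replicate numbers without saying that they mark pairs, and with 2 pairs the numbers do not settle it. The differences between replicates 1 and 2 correlated with r = 0.14 between the groups across 12918 genes. In both groups the number also went with Ddx3y counts in the library numbered 1 and Xist counts in the library numbered 2. With the replicate number as a block, 43 large and 31 small subunit genes were lower and 0 higher, and 60 pseudogene rows, 29 translation factor, 55 assembly and 26 mitochondrial genes were lower, so no call on a member changed.

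The 5 untested members had too few counts on their own rows. Rps2, Rps10, Rpl23a, Rpl21, Rpl24 and Rpl39l had most of their summed counts on pseudogene rows. Rpl21 was called lower both by itself (-0.63) and with those rows added (-0.70). The counting rule for reads shared by near-identical copies is not given in the sources used here. Signal of other cell types was present in every library, and 2 libraries per group leave the spread poorly known.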
